A study of Homo sapiens with 10 samples.

Results

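R5020, a synthetic progestin, was added to 2 inducible T47D lines without the compound that induces their progesterone receptor (PR), and the 4 arrays of that experiment, out of 10 in the series, are described here. They were chosen by their labels alone: iWT with R5020 or vehicle and iKR with R5020 or vehicle, all without the inducer AP21967. T47D is a luminal breast cancer cell line, and the parental T47D-Y cells used here lack PR. The clonal lines carried an inducible vector for wild type PR-B (iWT), for PR-B with the K388R mutation that blocks SUMO attachment (iKR), or an empty vector (iEV, PR-null). By the labels, AP21967 or its ethanol vehicle was given for 2 days during serum starvation, and R5020 or ethanol then for 6 h. The methods text instead puts a shorter starvation after the induction. The labels write the doses as 10e-9 M AP21967 and 10e-8 M R5020, a notation that alone leaves the exponent open. The methods text gives both doses as powers of 10 with these same exponents. The other 6 arrays were 4 of iWT and iKR with AP21967, each with R5020 or vehicle, and 2 of iEV, with AP21967 or with neither compound. No iEV array had R5020, and there was 1 array per condition and 1 clone per vector, so clone and vector cannot be told apart.

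PR is a ligand-activated transcription factor. Bound by progestin, it leaves its chaperones, binds hormone response elements as a dimer and recruits coregulators that raise or lower transcription. The glucocorticoid and mineralocorticoid receptors recognise the same element, so many genes answer to more than 1 of these hormones. In the luminal breast, progestins act through PR-positive cells, partly by paracrine signals. AP21967 is a dimerizer that joins the separate parts of a transcription factor, which then drives the vector.

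Values are RMA log2 signals, on which 1 unit is a factor of 2.0, and differences are R5020 minus vehicle in the same line unless stated otherwise. Each gene was read from its brightest probe set, and the 10911 genes with a signal of log2 6 or more on at least 1 array were tested. The luminal keratins KRT8, KRT18 and KRT19 were above 14 on all 10 arrays, while the basal keratin KRT14 stayed at or below 6.02, the stromal COL3A1 at or below 5.65 and the leukocyte PTPRC at or below 6.22. The other markers of those lists were not as low, with KRT5 at 7.79 to 8.16, ACTA2 at 7.64 to 7.90, COL1A1 at 9.59 to 9.77, VIM at 8.59 to 9.18, PDGFRB at 7.43 to 7.70 and CD3E at 8.09 to 8.29, and each probe set has its own background. The array medians were 8.118 to 8.148. The difference between the 3′ and 5′ control probe sets was 0.042 to 0.191 for ACTB and -0.14 to -0.041 for GAPDH over the 10 arrays. Bulk arrays cannot tell a change in every cell from a change in the share of cells that make a transcript.

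Without the inducer, few genes differed between R5020 and vehicle in both lines, and the larger of these differences were upward. Past 1.5 fold, 4 genes were higher in both iWT and iKR (0.0367% of the 10911), 0 were lower in both and 0 went in opposite directions. The 4 genes were FKBP5, a chaperone of steroid receptors, ZNF652, a zinc finger transcription factor, SLC26A3, an anion exchanger, and PGR, which encodes PR. At 1.3 fold SYBU, a kinesin adaptor, and SGK1, a kinase and classic target of corticosteroids, joined them, which made 6 genes higher, 0 lower and 1 opposite. At 1.2 fold 17 genes were higher in both lines (0.156%), 14 were lower in both (0.128%) and 6 were opposite (0.055%).

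**Figure D1:**
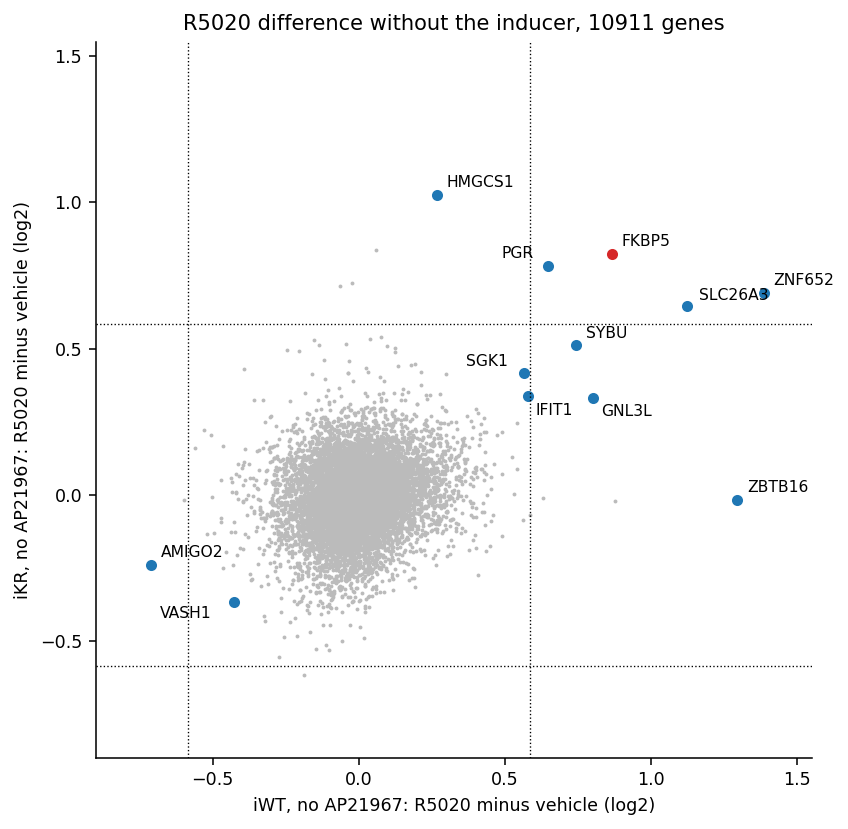
Each grey point is 1 of 10911 genes, with the difference between R5020 and vehicle without AP21967 (log2), iWT along the x axis, iKR along the y axis; dotted lines mark 1.5 fold. Labelled genes are named in the text, FKBP5 in red, and 4 of them lie past 1.5 fold in the upper right corner with none in the lower left.

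A single pair of arrays also differs by chance and handling, and the iEV pair, AP21967 against neither compound, gave a measure of this in cells with no receptor vector and no R5020. It also carries whatever AP21967 itself does. Past 1.5 fold, the R5020 pair of iWT held 10 higher (0.0917%) and 2 lower genes (0.0183%) and that of iKR 8 higher (0.0733%) and 1 lower (0.00917%), against 2 higher and 2 lower (0.0183% each) in the iEV pair. Past 2.0 fold, 3 genes were higher in iWT (0.0275%), 1 in iKR (0.00917%) and 0 in iEV, and 0 were lower in any pair. The SD over all genes was similar, at 0.125 for iWT, 0.118 for iKR and 0.113 for iEV, and the counts differed mainly in the upper tails. By signal level the SDs were less alike. Among the 5156 genes with a mean of log2 9 or more they were 0.0861, 0.1115 and 0.0868, in the same order. Among the 1689 genes with a mean under log2 7 they were 0.1653, 0.1233 and 0.1392. At 1.3 fold the higher genes were 75 (0.687%) in iWT, 37 (0.339%) in iKR and 22 (0.202%) in iEV, and the lower ones 43 (0.394%), 36 (0.33%) and 35 (0.321%). At 1.2 fold they were 288 (2.64%), 136 (1.25%) and 120 (1.1%) higher, and 220 (2.02%), 231 (2.12%) and 208 (1.91%) lower, in the same order of lines.

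**Figure D2:**
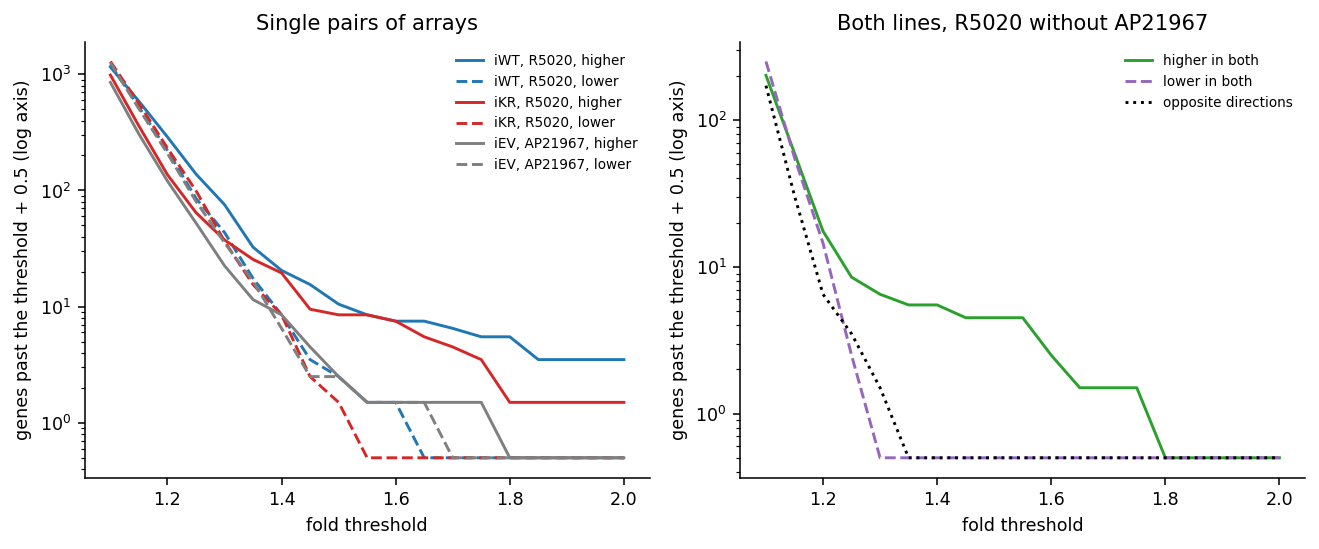
Number of genes past each fold threshold (x axis; y axis logarithmic, with 0.5 added so that 0 can be drawn). On the left are the single pairs, R5020 against vehicle without AP21967 in iWT and iKR and AP21967 against none in iEV, solid for higher and dashed for lower; on the right are genes that moved in both iWT and iKR, where 0 genes are lower from 1.3 fold on and 0 are higher from 1.8 fold on.

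The largest iEV difference in either direction was 0.81, in GNL3L. FKBP5 was the only gene past that size in the same direction in both receptor lines. In iWT, ZNF652, ZBTB16, SLC26A3 and BMPR1B also passed it, and in iKR HMGCS1 and HIRA did. The iWT and iKR differences correlated weakly over the 10911 genes (Pearson r 0.183, Spearman rho 0.149). Their correlations with the iEV difference were 0.042 and -0.039 (Pearson). Genes are not independent replicates, so these are descriptions. Both differences were above 0 for 24.5% of genes and below 0 for 30.1%, and the signs were opposite for 45.4%.

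FKBP5 was the 1 gene that rose by limma, which treated iWT and iKR as replicates of a shared R5020 response (0.00917% of the genes tested; 0 fell). Its signal was 9.11 in iWT and 8.86 in iKR with R5020, against 8.24 and 8.04 with vehicle, so both R5020 arrays lay above both vehicle arrays. The differences were 0.87 and 0.82, and the shared effect was 0.84 with a standard error of 0.08 (adjusted p = 0.021 from limma). With the uninduced pair of either line left out the call was lost, at adjusted p = 0.19 without iWT and 0.086 without iKR from limma. The uninduced effect was then a single pair whose spread was taken from the AP21967 pairs (1 residual degree of freedom), and without the line as a block the adjusted p was 1.0. With AP21967, FKBP5 reached 10.76 in iWT and 10.92 in iKR with R5020, against 7.81 and 7.88 with vehicle. The uninduced response was thus 28.2% of the induced one on the log2 scale, and the difference between them, 2.15 (SE 0.11), was called (adjusted p = 4.8e-05 from limma), as it was for 1.41% of all genes in the higher and 0.687% in the lower direction. In iEV, where FKBP5 was at 9.15 with AP21967 and 8.98 without, the signal lay above all 4 vehicle arrays of iWT and iKR. The uninduced R5020 arrays of iWT and iKR were closer to both PR-null arrays than to their own vehicle arrays.

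At an unadjusted p under 0.05, limma gave 214 genes higher (1.96%) and 217 lower (1.99%), about equal numbers. Fitted to the 4 arrays without AP21967 alone, which leaves 1 residual degree of freedom among the samples, limma called 7 genes higher (0.0642%) and 0 lower. These were FKBP5, PGR, ZNF652, SYBU, SGK1 and IFIT1, with adjusted p values from limma of 1.0e-04, 5.6e-04, 0.0019, 0.0023, 0.014 and 0.048, and SLC26A3. The SLC26A3 call is a description only, because the gene passed the level filter only through R5020 arrays. In the fit to 8 arrays the last 6 of these were not called, each with an adjusted p of 1.0.

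Among the genes with a large induced response, SGK1 and SLC26A3 also differed in both uninduced lines. SGK1 was at 9.77 in iWT and 9.22 in iKR with R5020, against 9.20 and 8.81 with vehicle, so the lower R5020 array was level with the higher vehicle array. Its differences of 0.57 and 0.41 compare with 2.11 and 1.81 with AP21967, and the inducer dependence was called (1.47, adjusted p = 0.001 from limma). As with FKBP5, the iEV arrays, at 9.76 with AP21967 and 9.88 without, stood above every vehicle array of the receptor lines. SLC26A3 was at 6.12 in iWT and 5.25 in iKR with R5020, against 5.00 and 4.61 with vehicle, and so lay near or under log2 6 on all 4 arrays. It passed the level filter only through R5020 arrays, the one of the 17 genes higher at 1.2 fold in both lines to do so, and its place among the 4 genes past 1.5 fold is therefore a description. Its differences were 1.12 and 0.65 without AP21967 and 2.55 and 1.73 with it. A second, dimmer SLC26A3 probe set gave 0.14 and 0.01 without AP21967 and -0.01 and -0.10 with it.

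SYBU followed the same order. It was at 7.79 in iWT and 7.70 in iKR with R5020, against 7.05 and 7.19 with vehicle, and the R5020 arrays stood apart from the vehicle arrays. The differences were 0.74 and 0.51 without AP21967 and 2.22 and 0.98 with it, and its iEV arrays were at 8.08 with AP21967 and 8.13 without.

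The promoters of FKBP5 and SGK1 are shown because both genes were higher with R5020 in the uninduced lines and 1 listed promoter of each holds the half-site of the hormone response element that PR shares with the glucocorticoid receptor. Each runs from 250 bases before to 50 after an annotated RefSeq start (GRCh38.p14), 5′ to 3′ on the minus strand, with AGAACA or its reverse complement TGTTCT in capitals. FKBP5 is at chr6:35728534-35728833, 1 of 2 starts listed for the gene, and its match begins at the start itself; the other listed promoter holds none. SGK1 is at chr6:134177812-134178111, 1 of 3 starts listed, and its match begins 5 bases past the start, while the other listed promoters hold none.
FKBP5: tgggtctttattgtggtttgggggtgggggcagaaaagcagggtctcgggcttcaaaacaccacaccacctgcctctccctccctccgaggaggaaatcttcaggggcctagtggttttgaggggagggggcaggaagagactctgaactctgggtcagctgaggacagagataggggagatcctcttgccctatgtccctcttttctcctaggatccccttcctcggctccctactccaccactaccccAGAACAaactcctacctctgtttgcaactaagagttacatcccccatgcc
SGK1: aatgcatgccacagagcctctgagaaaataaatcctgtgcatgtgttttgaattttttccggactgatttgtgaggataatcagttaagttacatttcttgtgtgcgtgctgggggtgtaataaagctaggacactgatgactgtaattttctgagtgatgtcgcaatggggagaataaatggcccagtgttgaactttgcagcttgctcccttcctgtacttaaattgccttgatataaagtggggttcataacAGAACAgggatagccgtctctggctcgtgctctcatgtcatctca
The half-site is short and stands in 14.8% of 35116 promoters of this length, while the full element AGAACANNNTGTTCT, which holds it once on each strand, stands in 1 of them. Of the 17 genes higher past 1.2 fold in both lines, 14 had a promoter listed and 3 held the half-site in at least 1 of their promoters, FKBP5, SGK1 and SLC14A2. Of the 44 genes higher past 2.0 fold in both lines with AP21967, 33 had a promoter and 9 held it. These are counts of genes with a match in any promoter, whereas the 14.8% is a share of single promoters, so the 2 are not alike. A match is a description of the sequence and not of binding.

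PGR and ZNF652 behaved unlike these targets when the inducer was added. The PGR probe set read 11.77 in iWT and 11.43 in iKR with R5020, against 11.12 and 10.65 with vehicle, differences of 0.65 and 0.78. Both R5020 arrays exceeded both vehicle arrays. With AP21967 the difference was 0.55 in iWT (11.89 with R5020, 11.34 with vehicle) and -0.71 in iKR (11.38 and 12.08). PGR was at 6.17 and 6.25 in iEV, so PR mRNA was abundant in the receptor lines although no inducer had been added. The array cannot tell vector from endogenous transcript and does not measure the protein. ZNF652 was at 10.22 in iWT and 9.33 in iKR with R5020, against 8.84 and 8.64 with vehicle. Its differences were 1.39 and 0.69 without AP21967 and 1.57 and 0.31 with it, and it also differed by 0.38 in iEV (10.16 with AP21967, 9.78 without).

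**Figure D3:**
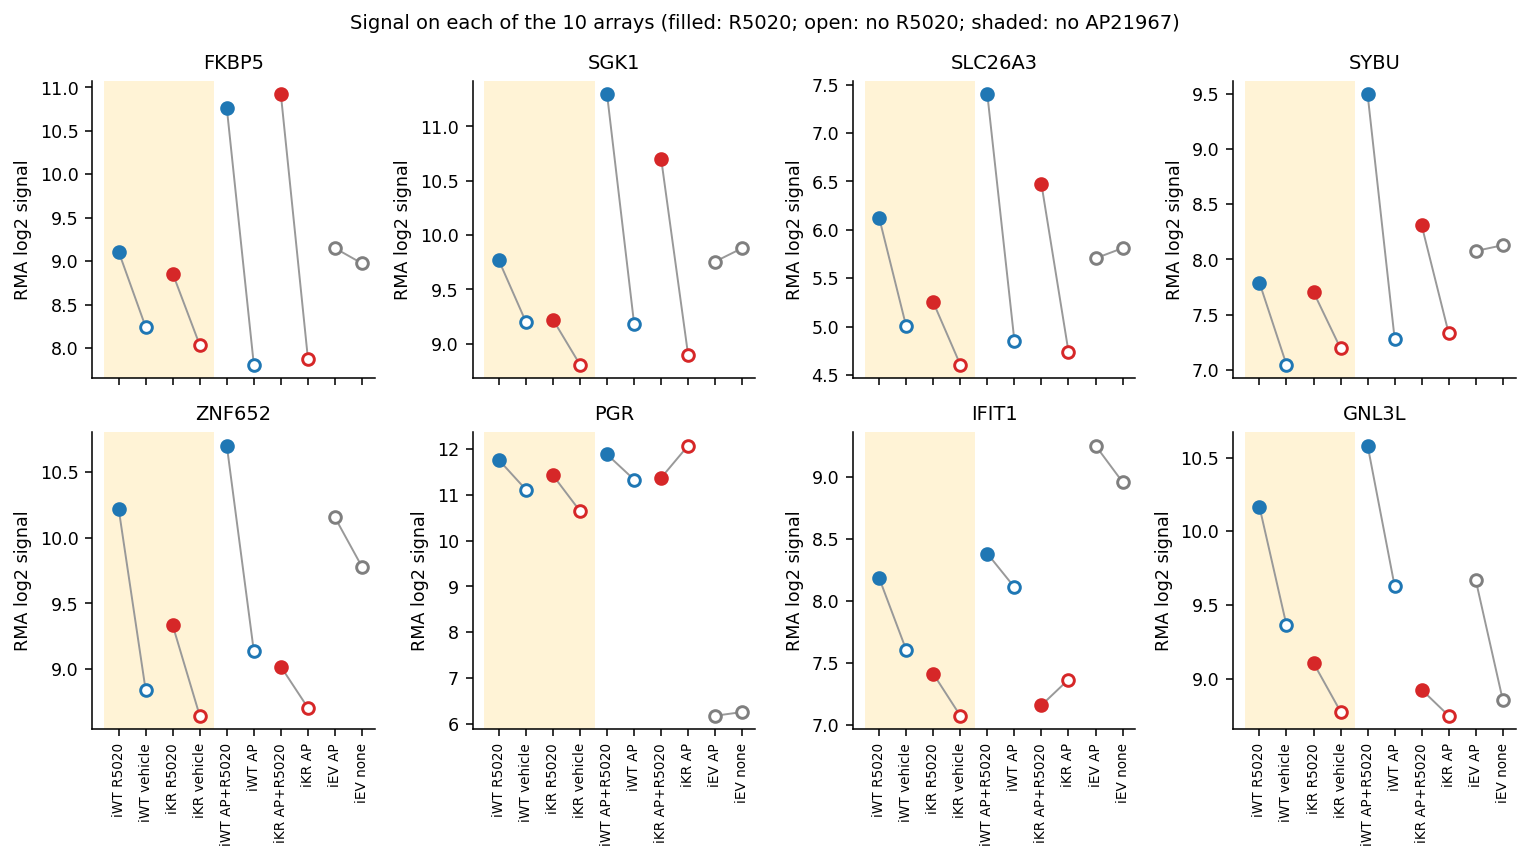
RMA log2 signal (y axis, a separate scale for each gene) of 8 genes on the 10 arrays, filled for R5020 and open for no R5020, blue for iWT, red for iKR and grey for iEV; the shaded part holds the 4 arrays without AP21967 and lines join pairs. FKBP5, SGK1, SLC26A3 and SYBU show a step in the shaded pairs that is larger in the AP21967 pairs, whereas PGR, IFIT1 and, in iKR, ZNF652 do not.

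The other 4 steroid receptor genes measured did not reach 1.1 fold in the same direction in both uninduced lines. NR3C1, the glucocorticoid receptor gene, was between 6.57 and 6.81 on all 10 arrays and differed by -0.03 in iWT and in iKR without AP21967. NR3C2, the mineralocorticoid receptor gene, was between 6.93 and 7.16 (differences -0.08 and 0.04), and ESR2 between 6.83 and 7.09 (0.10 and 0.10). ESR1, the estrogen receptor gene of luminal cells, was at 10.76 in iWT and 10.19 in iKR with R5020, against 10.80 and 10.10 with vehicle. With AP21967 its differences were -0.61 and -0.97, and the inducer dependence was called (-0.82, adjusted p = 0.025 from limma). Low mRNA signal does not show that a receptor protein is absent.

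Some of the largest uninduced differences did not repeat. ZBTB16, a transcriptional repressor induced by progestins and glucocorticoids, was at 7.24 with R5020 against 5.95 with vehicle in iWT, but at 6.14 against 6.16 in iKR. The differences were 1.29 and -0.02, whereas with AP21967 they were 1.73 and 1.32. BMPR1B, a bone morphogenetic protein receptor gene, gave 0.88 and -0.02, and with AP21967 0.25 and 0.11. HIRA, a histone chaperone gene, gave 0.06 in iWT and 0.84 in iKR. Its iKR value rests on a vehicle array at 8.41, while the other 9 arrays lay between 9.125 and 9.825. Against the iKR vehicle array with AP21967 it differed by 0.10. HMGCS1, an enzyme of sterol synthesis, gave 0.27 and 1.03, and the iKR value rests on a vehicle array at 9.38, while the other 9 arrays lay between 10.23 and 10.89. Its second probe set gave -0.07 and 0.09. When the uninduced pair of 1 line was left out, limma made 1 call from the remaining pair, HMGCS1 without iWT and ZBTB16 without iKR. With the spread taken from the AP21967 pairs, these calls compare single arrays.

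GNL3L, a nucleolar GTPase gene, shows how far an uninduced difference can match one with no R5020. It was at 10.17 in iWT and 9.11 in iKR with R5020, against 9.36 and 8.78 with vehicle, differences of 0.80 and 0.33. In iEV it was at 9.67 with AP21967 and 8.86 without, a difference of 0.81. Its 3 dimmer probe sets gave -0.10 to 0.24 in iWT and 0.10 to 0.14 in iKR. The next largest iEV differences were those of GATC (0.61), RAB5C (0.58), RFWD3 (0.54) and MAGT1 (0.53), and on the lower side QPCT (-0.73) and CDC42EP3 (-0.63). Of these 6 genes GATC (0.08 and 0.32), RAB5C (0.28 and 0.13) and RFWD3 (0.10 and 0.10) were above 0 in both receptor lines, and QPCT differed by -0.30 in iWT and 0.26 in iKR.

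The 17 genes higher past 1.2 fold in both lines comprised the 6 already named for 1.3 fold, GNL3L, HMGCS1, IFIT1 and 8 others. Of the 17, 6 were also higher by limma with AP21967, where 5.23% of all genes were, and 8 were above 0 in both induced lines (47.1%, against 43.6% of the 2668 genes above 0 in both uninduced lines). IFIT1, IFITM1 and IFI27, all interferon-stimulated, are described below with their group. LMNB1, a nuclear lamin gene, differed by 0.30 and 0.41 but by 0.35 and -0.37 with AP21967. LAMP3, a lysosomal membrane protein gene, differed by 0.30 and 0.29, with 0.20 and 0.48 with AP21967. The other 4 were SLC14A2, a urea transporter gene, GAD2, an enzyme of GABA synthesis, KRT38, a hair keratin gene, and BPY2. They differed by 0.27 to 0.40 and lay between 6.33 and 8.18 on the 10 arrays.

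The uninduced R5020 array was also set against the other vehicle array of its line, the one with AP21967. There, 11 of the 17 genes stayed higher in both lines and 6 stayed past 1.2 fold. Of the 2668 genes above 0 in both uninduced lines, 1184 stayed higher in both and 15 were past 1.2 fold. FKBP5, at 9.11 in iWT and 8.86 in iKR with R5020, then stood against 7.81 and 7.88. Only FKBP5 and ZNF652 were past 1.5 fold in both lines against that array, and the same 2 were against the mean of both vehicle arrays. On 10 of the 17 genes all 4 vehicle arrays of iWT and iKR lay below both iEV arrays, which held for 20.7% of all genes.

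The 14 genes lower past 1.2 fold in both lines had small differences, and none was past 1.3 fold in both. VASH1, which encodes an angiogenesis inhibitor, was at 6.58 in iWT and 6.70 in iKR with R5020, against 7.01 and 7.07 with vehicle, and differed by -0.43 and -0.37. VPS9D1 gave -0.32 and -0.42, SOX12, a transcription factor gene, -0.32 and -0.43, and TP53I11 -0.27 and -0.56. APOE, a lipid carrier gene, gave -0.34 and -0.31, with -0.10 and -0.27 and then -0.16 and -0.02 on its dimmer probe sets. HSPG2, which encodes the matrix proteoglycan perlecan, gave -0.37 and -0.29. The other 8 (CDK18, ETV2, KMT2B, MACO1, NOTCH2NLA, PLCB3, RAI14 and ZNF205) were between -0.27 and -0.40 in each line, although the dimmest KMT2B probe set gave 0.22 and 0.40. With AP21967, 3 of the 14 were lower by limma (6.25% of all genes were) and 2 were higher, VPS9D1 and NOTCH2NLA. Against the vehicle array with AP21967 all 14 stayed lower in both lines and 0 stayed past 1.2 fold. Of the 3279 genes below 0 in both uninduced lines, 1719 stayed lower in both and 23 were past 1.2 fold.

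Genes that the induced receptors move give a list chosen on other arrays. Past 2.0 fold in both lines with AP21967, 44 genes were higher and 7 lower. Of the 44, 2 passed the level filter only through R5020 arrays, RASGRP1 and SLC26A3, as did 70 of all 10911 genes. The counts and medians of the 44 include them and are descriptions. Without AP21967, 21 of the 44 were higher in both lines, 47.7% against 24.5% of all genes, and 6 were lower in both. Their median difference was 0.03 in iWT and 0.07 in iKR without AP21967, compared with 1.46 and 1.71 with it, and over all genes the uninduced medians were -0.01 and -0.003. The median uninduced effect was 3.3% of the induced one. At an unadjusted p under 0.05, 6 of the 44 were higher by limma and 0 lower. Against the vehicle array with AP21967, 19 of the 44 were higher in both lines (43.2%, against 24.5% of all genes) and 11 were lower.

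Within these 44, the mean uninduced effect of the lines was over 20% of the induced one for FKBP5, SGK1, SLC26A3, ZBTB16 and CBLL1, for ZBTB16 through iWT alone. CBLL1, which encodes a ubiquitin ligase, was at 8.70 in iWT and 8.65 in iKR with R5020, against 8.48 and 8.23 with vehicle, and differed by 0.21 and 0.42. ATAD2, a chromatin-associated ATPase gene, gave 0.22 and 0.19 and kept 15.7%. Others of the 44, taken from those with the smallest uninduced effects, had differences at or below 0 in at least 1 line. TRAF5, an adaptor of TNF receptor signalling, gave -0.04 and -0.14 without AP21967 and 3.08 and 3.58 with it, and VDR, the vitamin D receptor gene, gave -0.13 and 0.01 without it and 1.60 and 2.20 with it. F3, the tissue factor gene, gave -0.26 and 0.12, and JAG1, a Notch ligand gene, -0.50 and 0.20. CEBPD, a transcription factor gene, gave -0.27 and -0.11, and NDRG1, a stress-responsive gene, 0.03 and -0.24.

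**Figure D4:**
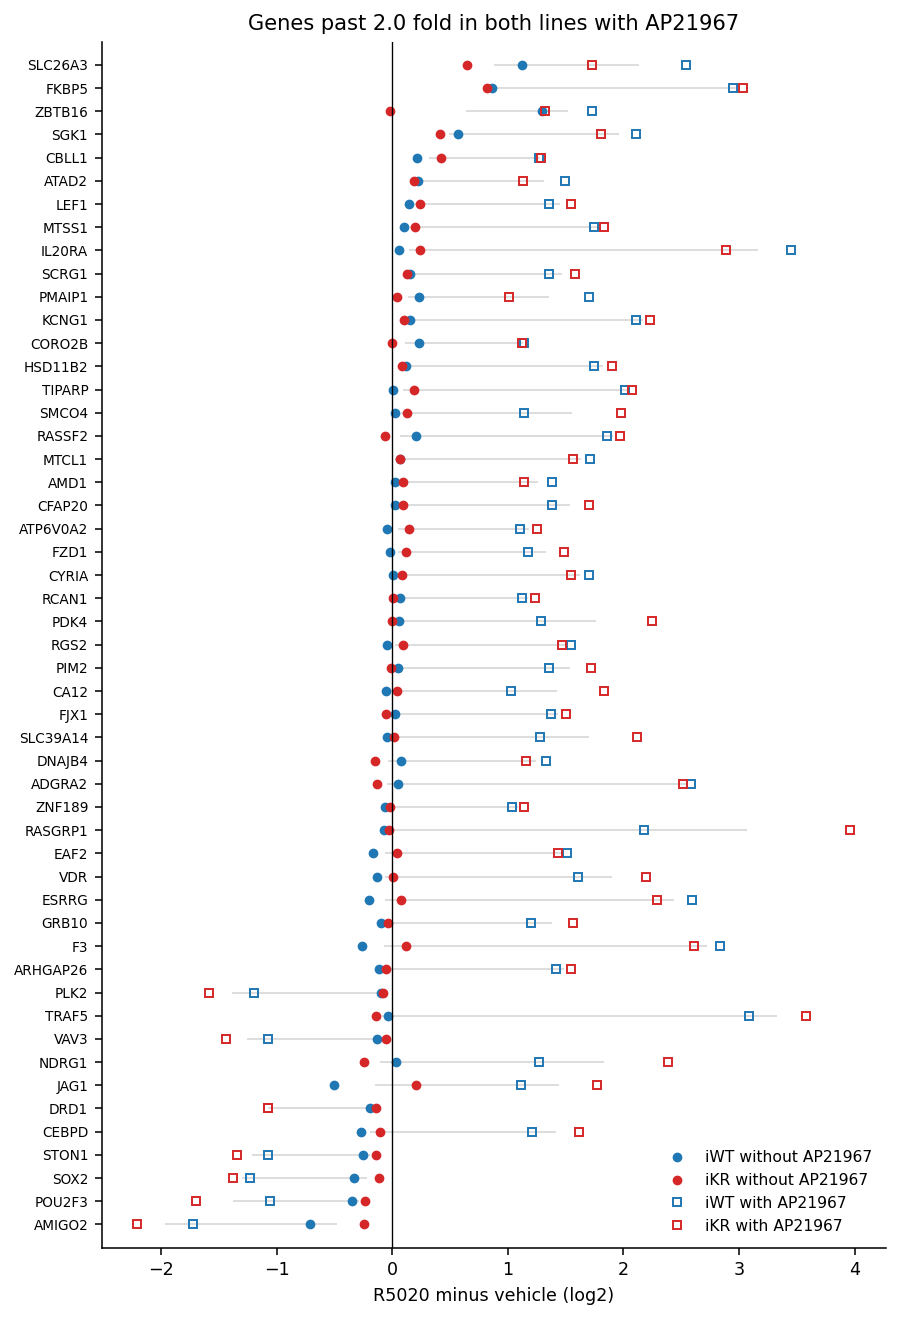
Genes past 2.0 fold, higher or lower, in both lines with AP21967, ordered by their mean difference without it, with the R5020 minus vehicle difference (log2) on the x axis, filled circles without AP21967 and open squares with AP21967, blue for iWT and red for iKR; a grey line joins the mean of each pair. Most filled circles lie near 0 while the squares lie past 1 on either side, and the 7 genes lower with AP21967 have all of their filled circles below 0.

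The 7 genes lower with AP21967 were all lower in both uninduced lines as well, where 30.1% of all genes were. Their medians were -0.25 in iWT and -0.14 in iKR without AP21967, against -1.08 and -1.44 with it. AMIGO2, which encodes a cell adhesion protein, was at 8.58 in iWT and 8.99 in iKR with R5020, against 9.30 and 9.23 with vehicle. Its differences of -0.71 and -0.24 made 24.2% of the induced effect. POU2F3 gave -0.34 and -0.24, SOX2 -0.33 and -0.11 and STON1 -0.25 and -0.14. The transcription factor genes POU2F3 and SOX2 and the endocytic adaptor gene STON1 were lower by 1.06 or more in each line with the inducer. DRD1 gave -0.19 and -0.14, VAV3 -0.14 and -0.05 and PLK2 -0.10 and -0.08. At an unadjusted p under 0.05, 2 of the 7 were lower by limma without AP21967. Against the vehicle array with AP21967, 5 of the 7 were lower in both lines, as were 3762 of all 10911 genes. SOX2 differed by 0.19 and 0.30 on its dimmest probe set.

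Of 29 measured progestin and glucocorticoid response genes, 9 were higher and 10 lower in both uninduced lines (31.0% and 34.5%, against 24.5% and 30.1% of all genes), with medians of 0.00 in each line. With AP21967 the medians were 0.34 and 0.57. Limma called 1, FKBP5, without AP21967 and 17 as higher with it (5.23% of all genes were). GLUL, the glutamine synthetase gene, gave 0.24 and 0.34, and TNFSF11, the progestin-regulated paracrine factor RANKL, gave 0.25 and 0.22 at levels of 5.82 to 6.19. TSC22D3, a glucocorticoid target, gave -0.04 and -0.02. HSD11B2, which inactivates cortisol, gave 0.12 and 0.08 (1.74 and 1.90 with AP21967), and TIPARP, an ADP-ribosyltransferase gene, 0.00 and 0.19 (2.02 and 2.07 with AP21967).

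Larger lists came from the study's supplement, the second of them chosen by the study on other T47D lines. Of 106 measured progestin targets known from earlier work, 43 were higher in both uninduced lines (40.6%, against 24.5% of all genes) and 18 lower (17.0%, against 30.1%), with medians of 0.01 and 0.05. Of 265 measured genes that the stable lines raised with both receptors, 89 were higher (33.6%) and 63 lower (23.8%), with medians of 0.004 and 0.020. Limma called 1 gene in each, FKBP5. With AP21967, 70 of the 106 and 191 of the 265 were called higher, against 5.23% of all genes.

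Interferon-stimulated genes, which encode antiviral proteins, were also mostly higher with R5020 in the uninduced lines. Of 31 measured, 16 were higher in both lines (51.6%, against 24.5% of all genes) and 1, PSMB9, was lower in both. The medians were 0.12 in iWT and 0.04 in iKR, and 7 were higher by limma at an unadjusted p under 0.05, but 0 at an adjusted p under 0.05. IFIT1, which binds viral RNA, was at 8.18 in iWT and 7.41 in iKR with R5020, against 7.60 and 7.07 with vehicle, so the lower R5020 array lay below the higher vehicle array. MX1, a dynamin-like antiviral GTPase gene, gave 0.54 and 0.25, IFI44 0.42 and 0.21, IFITM1, a membrane protein that restricts virus entry, 0.41 and 0.28, IFI6 0.36 and 0.11 and IFI27 0.29 and 0.29. IRF9, part of the interferon-activated transcription factor, gave 0.12 and -0.29.

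The differences of this group changed with the vehicle array used. In 9 of the 31 genes the uninduced vehicle array was the lowest of the 4 arrays in both lines, which held for 8.51% of all genes. Set against the vehicle array with AP21967, 8 of the 31 were higher in both lines (25.8%) and 11 were lower. Of all 10911 genes, 24.5% were higher and 3762 genes lower against that array, so the list was close to those shares. There IFIT1 differed by only 0.07 and 0.05, IFI27 by -0.23 and -0.10 and IFITM1 by -0.05 and 0.07. With AP21967 the R5020 medians were 0.02 and -0.03. In 26 of the 31 all 4 vehicle arrays of the receptor lines lay below both iEV arrays (20.7% of all genes), as for IFI27, at 9.89 with AP21967 and 9.97 without in iEV. The part of the vehicle arrays in the R5020 differences was not tested.

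**Figure D5:**
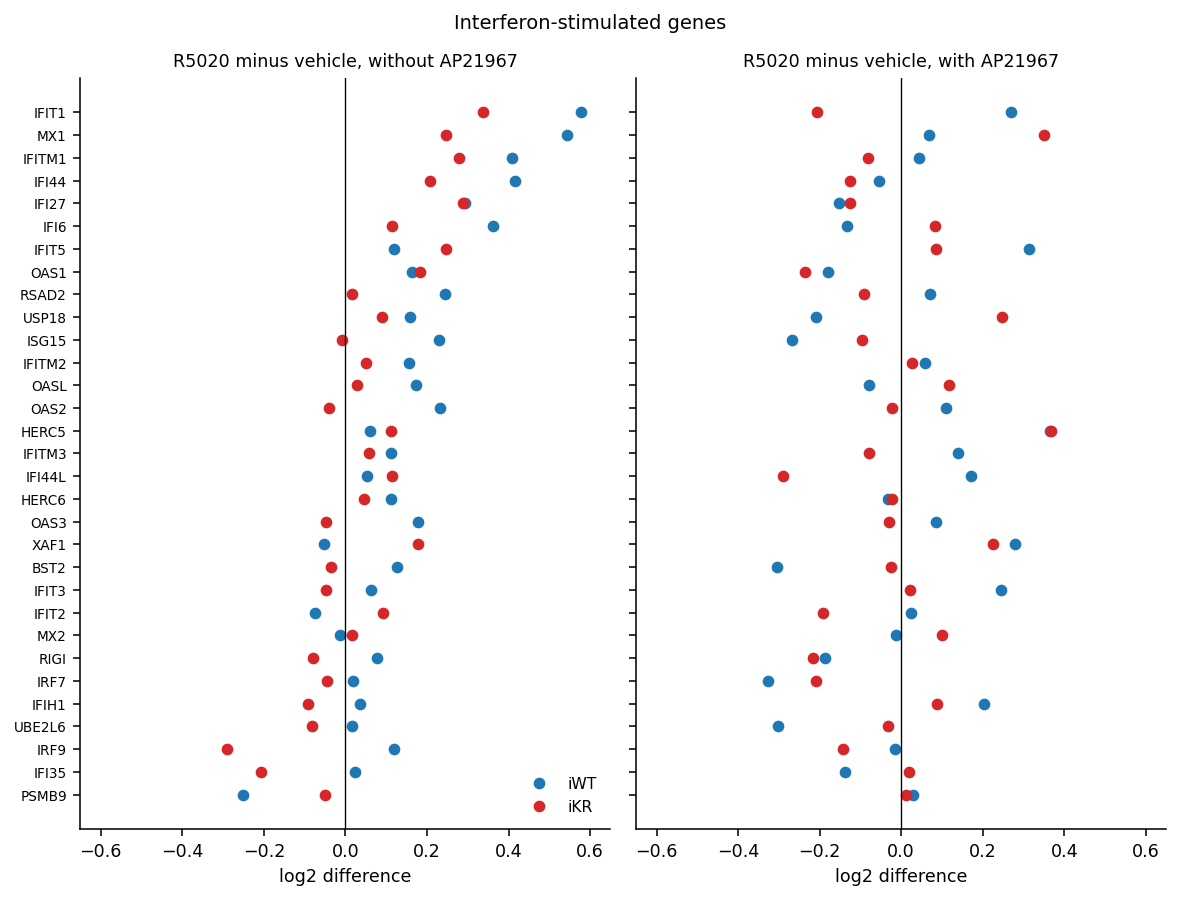
The 31 interferon-stimulated genes that passed the level filter, ordered by their mean difference without AP21967, with the R5020 minus vehicle difference (log2) on the x axis, blue for iWT and red for iKR, in the left panel without and in the right panel with AP21967. On the left most points lie above 0, led by IFIT1 at 0.58 and 0.34, and on the right they scatter about 0.

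The promoters of the 3 interferon-stimulated genes past 1.2 fold in both lines are shown because these genes passed that threshold against the uninduced vehicle arrays. Each holds the interferon-stimulated response element, in capitals here as GAAANNGAAA or its reverse complement TTTCNNTTTC. They run from 250 bases before to 50 after the RefSeq start (GRCh38.p14), 5′ to 3′ on the plus strand, at chr10:89392373-89392672 for IFIT1, chr14:94110486-94110785 for IFI27 and chr11:313790-314089 for IFITM1.
IFIT1: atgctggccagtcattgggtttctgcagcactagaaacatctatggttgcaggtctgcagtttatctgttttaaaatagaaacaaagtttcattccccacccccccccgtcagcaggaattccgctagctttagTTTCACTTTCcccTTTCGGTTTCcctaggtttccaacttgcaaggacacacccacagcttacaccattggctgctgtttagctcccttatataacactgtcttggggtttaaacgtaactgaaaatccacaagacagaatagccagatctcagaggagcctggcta
IFI27: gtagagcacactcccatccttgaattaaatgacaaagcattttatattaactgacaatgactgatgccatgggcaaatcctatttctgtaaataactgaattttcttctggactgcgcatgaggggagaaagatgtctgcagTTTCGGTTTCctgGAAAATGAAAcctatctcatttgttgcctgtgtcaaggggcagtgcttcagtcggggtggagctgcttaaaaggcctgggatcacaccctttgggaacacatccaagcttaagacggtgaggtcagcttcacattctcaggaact
IFITM1: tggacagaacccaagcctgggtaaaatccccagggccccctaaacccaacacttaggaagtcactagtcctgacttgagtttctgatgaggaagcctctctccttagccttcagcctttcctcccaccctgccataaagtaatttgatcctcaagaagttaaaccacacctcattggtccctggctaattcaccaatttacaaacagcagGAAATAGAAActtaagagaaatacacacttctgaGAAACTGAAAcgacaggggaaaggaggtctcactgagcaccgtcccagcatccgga
Each held 2 matches, and counted from the start the first began at -116 in IFIT1, -108 in IFI27 and -40 in IFITM1. The motif stands in 3.57% of the 35116 promoters. Of the 16 interferon-stimulated genes higher in both uninduced lines, 13 had a promoter listed and 11 held it, and of the 15 others 11 had a promoter and 5 held it. Here too genes are counted, while the 3.57% is a share of single promoters. A match describes the sequence only, and its part in the R5020 differences was not tested.

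The other lists are read against the 24.5% of all genes that were higher and the 30.1% that were lower in both uninduced lines. Of 17 cholesterol synthesis genes 4 were higher (23.5%) and 5 lower (29.4%) in both lines, close to those shares. Of 20 genes of the unfolded protein and amino acid stress responses 6 were higher (30.0%) and 4 lower. Proliferation genes leaned upward, with 10 of 27 higher (37.0%) and 4 lower (14.8%), and so did hypoxia and glycolysis genes, with 11 of 21 higher and 5 lower (23.8%). The proliferation genes leaned the other way against the vehicle array with AP21967, with 3 of 27 higher (11.1%) and 19 lower in both lines. Of all 10911 genes, 24.5% were higher and 3762 genes lower in both lines against that array. The hypoxia and glycolysis share of 52.4% was near that of the interferon list, but the medians were 0.01 in iWT and 0.05 in iKR, and 3 of 21 were higher in both lines against the vehicle array with AP21967. Of 21 immediate early genes 5 were higher (23.8%) and 9 lower (42.9%), of 19 estrogen response genes 5 (26.3%) and 8 (42.1%), of 17 androgen response genes 6 (35.3%) and 4 (23.5%), and of 7 metallothioneins 1 (14.3%) and 3 (42.9%). Of 11 steroid receptor chaperones 4 were higher (36.4%) and 3 lower (27.3%), FKBP5 being the only one called. Luminal markers leaned downward, with 0 of 10 higher and 5 lower, with differences from -0.15 to 0.09 in each line. This lean did not hold against the vehicle array with AP21967, where 5 of the 10 were higher and 2 lower in both lines. In cells given AP21967, 5 of the 10 were lower with R5020 by limma (6.25% of all genes were). None of these lists held a limma call without AP21967 other than FKBP5.

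The 5 genes furthest apart in opposite directions were HAUS6, a spindle gene (-0.39 in iWT and 0.43 in iKR), SEC24D, a vesicle coat gene (-0.33 and 0.32), ZFP30 (-0.36 and 0.32), the kallikrein gene KLK15 (0.41 and -0.28) and NAP1L2 (-0.30 and 0.27). These differences were as large as most of those shared by the lines at 1.2 fold.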

How the data were processed

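The authors used Robust Multi-array Average in R on the raw array files (affy and affyQCReport; versions not given in the sources used here), so each deposited value is a log2 signal of a probe set after background adjustment and quantile normalization, on 1 Affymetrix array per condition. All columns of the value table belong to the samples used (0 were left out). Of 22277 probe sets, 19070 had 1 gene in the platform annotation, 1043 several and 2164 none listed. The brightest probe set stood for each of 11963 genes, and 10911 whose highest array reached log2 6 were kept.

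limma 3.58.1 (R 4.3.3) was fitted to the 8 arrays of iWT and iKR, with a block for every combination of line and inducer and separate R5020 effects for uninduced and induced cells. The lines served as replicates of a shared response, iWT was not tested against iKR, and p values measure only the spread between these single arrays. Calls were adjusted p under 0.05 by Benjamini-Hochberg over all genes kept. Scripts were tested on simulated data. Other settings tried were filters, probe sets, normalization, reference arrays, fold thresholds and model forms. Arrays have no depth, and their number limits the precision. With 1 array per condition, differences within a line carry no replicate check.

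Named genes were PGR and steroid receptor genes, those past 2.0 fold in either line or 1.5 fold in both, the 20 most shared in each direction, limma calls, the 5 most opposite, the 5 largest in iEV in each direction, the 10 most and 10 least responsive of those past 2.0 fold with AP21967, and up to 3 per list. HIRA, BMPR1B, the 7 genes lower with AP21967, HSD11B2, TIPARP, TSC22D3, MX1, IFI44, IFI6, IRF9 and PSMB9 were named after their values were seen where the rule did not take them. Members and lists were chosen with earlier results of these data known. Promoters are from RefSeq (GRCh38.p14). Python 3.11.15, numpy 2.4.6, pandas 2.3.3 and matplotlib 3.10.9 were used.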

Additional observations from a re-analysis of the deposited data

Results flagged for a closer look

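The R5020 effect differed between cells with and without AP21967 in limma's test of that difference for the following genes of the report, given as the effect with minus without AP21967 (log2) with its adjusted p. Higher with the inducer were FKBP5 (2.15, 4.8e-05), SGK1 (1.47, 0.001), SLC26A3 (1.25, 0.041), CBLL1 (0.96, 0.0049), ATAD2 (1.11, 0.0053), TRAF5 (3.42, 3.7e-05), VDR (1.96, 0.001), F3 (2.79, 5.3e-05), CEBPD (1.60, 0.001), NDRG1 (1.93, 0.014), JAG1 (1.59, 0.017), HSD11B2 (1.72, 0.00015) and TIPARP (1.95, 7.3e-05). SLC26A3 passed the level filter only through R5020 arrays, and genes picked for their response with AP21967 had to differ here. VPS9D1 (0.80, 0.018) and NOTCH2NLA (0.75, 0.03) were lower with R5020 without AP21967 and higher with it. Both were picked for their lower uninduced differences, which this test uses again, so their values are descriptions only. Lower with the inducer were AMIGO2 (-1.49, 0.0063), POU2F3 (-1.09, 0.025), SOX2 (-1.08, 0.0037), STON1 (-1.02, 0.0053), DRD1 (-0.91, 0.0044), PLK2 (-1.30, 0.0026), VAV3 (-1.16, 0.0044) and ESR1 (-0.82, 0.025).

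Without AP21967, 5 genes went in opposite directions in iWT and iKR. The iWT minus iKR difference of their R5020 differences was -0.82 for HAUS6, -0.65 for SEC24D, -0.68 for ZFP30, 0.68 for KLK15 and -0.57 for NAP1L2. With 1 array per condition these differences between the lines were not tested.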

How the results depend on the processing

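Without AP21967 limma called 1 gene as higher, 0 without the line as a block and 7 on the 4 uninduced arrays alone. FKBP5 was called in 10 of 13 settings, and its effect was 0.82 to 0.87 in all of them. The inducer dependence was called for 154 genes as higher and 75 as lower. These were 265 and 176 with all 10 arrays, 40 and 3 without the line as a block, and with the uninduced pair of 1 line left out 94 to 102 and 22 to 39. The lower count was 35 after cyclic loess and 149 with a trended, robust prior. Genes past 1.5 fold in both lines were 4 higher and 0 lower, and 2 higher against the mean of both vehicle arrays. Against the vehicle array with AP21967, an alternative chosen after seeing the data, 2 were higher and 3 lower. At 2.0 fold 0 were higher, and at 1.2 fold 17 were higher and 14 lower. In single pairs at 1.5 fold, a mean of log2 7 or more left 6 higher and 1 lower in iWT and 1 lower in iEV. The mean of probe sets left 5 higher and 0 lower in iKR and 1 lower in iEV. Without _x_at and _s_at probe sets 0 were lower in iKR and in iEV, and median centring left 1 lower in iEV. At 2.0 fold the counts were 3 higher and 0 lower in iWT, 1 and 0 in iKR, and 0 and 0 in iEV. At 1.3 fold they were 75 and 43, 37 and 36, and 22 and 35, and at 1.2 fold 288 and 220, 136 and 231, and 120 and 208. The cause of these shifts was not tested. In the limma settings no uninduced effect changed sign for FKBP5, SGK1, SLC26A3, ZNF652, PGR, SYBU or IFIT1. The change of vehicle array was not among those settings. Against the vehicle array with AP21967, PGR differed by 0.43 in iWT and -0.65 in iKR. Of 98 other probe sets of 50 named genes, 63 moved the mean difference by more than the spread between the lines and 45 gave the other sign, among them a KMT2B (0.31 against -0.33), a SOX2 (0.24 against -0.22) and a BUB1 probe set (0.19 against -0.20). R5020 and vehicle arrays are paired by line and inducer in the limma fit. By replicate number no paired analysis was possible because every label gives replicate 1. Precision is limited by 1 array per condition and, for SLC26A3 and ZBTB16, by signals near log2 6.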
